A study of Rattus norvegicus with 15 samples.

Results

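The 10 libraries described here compare the abdominal aorta of hypertensive rats with and without neferine, 5 libraries from spontaneously hypertensive rats given neferine (SHR+Nef) and 5 from untreated rats of the same strain (SHR), out of 15 libraries in the series. SHR rats received double distilled water for 10 weeks, and SHR+Nef rats received neferine at 10 mg/kg per day for 10 weeks. The 5 remaining libraries came from Wistar Kyoto rats (WKY), the normotensive strain, also given double distilled water for 10 weeks, and their values are printed beside the others. Both groups compared thus carry the SHR background and differ in treatment alone, as far as the labels say. Age, sex and route are not given in the labels, nor whether each library is 1 animal, so the p-values measure the spread between these libraries.

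SHR is an inbred strain that develops high blood pressure without any intervention and is a standard model of essential hypertension. The abdominal aorta is a conduit artery with an inner endothelium, a media of smooth muscle and elastin, and an outer adventitia of fibroblasts, nerves and fat. Neferine is a bisbenzylisoquinoline alkaloid of the lotus seed embryo that has been studied for its action on blood vessels. The RNA was depleted of ribosomal RNA, and transcripts were measured by sequencing. In such bulk tissue, fewer cells of a type and less RNA per cell cannot be told apart.

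Transcripts carry either an Ensembl rat ID or the number of an assembled locus and isoform, so that MERGE.20230.3 is isoform 3 of its locus. Isoforms of a locus share much of their sequence, so that reads are divided among them by estimation. A locus sum avoids that division only among the isoforms it holds. Ensembl transcripts and unlisted isoforms enter no sum, so a shift of reads between them and a locus would still change the sum, and this was not tested. None of the 43936 IDs could be paired with a gene symbol in the table used here (0 matched), so the markers of smooth muscle, endothelium and other aortic cells, and the pathway lists, were not analysed. At most 2 IDs are named in each direction for transcripts and for loci, with no gene function attached. Values are the deposited abundances in units that the tables leave unnamed, and differences are SHR+Nef minus SHR on the log2(value + 1) scale, which understates the change of low transcripts.

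A transcript was compared when it was listed for both groups, averaged 1 or more in SHR and reached 1 in 5 or more of the 10 libraries. This left 23172 of the 39097 transcripts listed for both, 13198 assembled isoforms and 9974 Ensembl transcripts. Sums over assembled isoforms were compared for 9183 loci by the same rule. All 2774 transcripts listed for SHR but not for SHR+Nef had an SHR mean under 0.5, so the listing took none out of the comparison. The rule itself is not even-handed, because a transcript low in SHR and high with neferine cannot enter: 1353 transcripts and 299 loci averaged under 1 in SHR and 1 or more in SHR+Nef and stayed out, while 834 transcripts and 241 loci of the opposite kind were kept. Of those kept, 5 transcripts and 3 loci reached 1 in all 5 SHR libraries and in no SHR+Nef library, so they entered only through the group where they are high. Such a feature is untested under a filter on the SHR+Nef mean, and untested without any 1 SHR library unless the filter of all libraries is held, an alternative added after the data were seen.

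Before the results, SHR replicate 4 has to be set apart from the other libraries. Of the 23172 transcripts, 2788 stood at 0 in it, against 378 to 637 in the other 4 SHR libraries and 513 to 641 in SHR+Nef. Ranked across transcripts, its median Spearman coefficient with the rest of its group was 0.606, against 0.723 to 0.735 for those 4 and 0.752 to 0.763 within SHR+Nef. Results that rest on it are given with and without it.

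At the level of loci, 3 of 9183 sums differed between SHR+Nef and SHR, 1 higher and 2 lower with neferine (limma, adjusted p under 0.05, 0.0327% of the loci tested, 548 with an unadjusted p under 0.05). The 2 loci that fell were MERGE.20230, by about 20.2-fold in its mean, and MERGE.29181, by about 5.55-fold. The locus that rose was MERGE.1557, by about 3.44-fold. Their differences were outside the range of -0.75 to 0.79 that held the middle 95% of all locus differences. The calls themselves select for large differences, so this is a description and no further support.

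MERGE.20230 was abundant only in untreated SHR among the 3 groups. Its sum was 11.8, 9.70, 7.51, 3.86 and 6.25 in SHR replicates 1 to 5. With neferine it was 0.210, 0.265, 0.240, 1.03 and 0.190 in SHR+Nef replicates 1, 2, 4, 5 and 6. Every SHR library lay above every SHR+Nef library, the nearest being SHR replicate 4 and SHR+Nef replicate 5. In WKY the sum was 0.324, 0.747, 0.224, 0.218 and 0.413 in replicates 1 to 5, a range that the treated libraries overlap. The group means were 7.83 ± 3.08 in SHR, 0.387 ± 0.361 in SHR+Nef and 0.385 ± 0.218 in WKY (SD, n = 5 each). On the log2 scale SHR+Nef differed from SHR by -2.63, standard error 0.24, with a 95% interval from -3.14 to -2.11 (limma, adjusted p = 0.000183). Without SHR replicate 4 it was -2.82 (limma, adjusted p = 2.29e-05). The locus met the filter through its 5 SHR libraries alone, and only 1 SHR+Nef library was at 1 or more. That library keeps it out of the 3 loci counted above as entering only through SHR. A filter on the SHR+Nef mean leaves it untested, so its p-values are no support beyond these values.

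The 2 isoforms of MERGE.20230 did not share the signal evenly between SHR libraries. Isoform 1 reached 11.5 in SHR replicate 1 and 1.78 in replicate 4, and did not exceed 0.0165 in SHR replicates 2, 3 and 5. Isoform 3 was at 9.70, 7.49, 2.08 and 6.24 in SHR replicates 2 to 5 and at 0.336 in replicate 1. The SHR libraries thus differed in the isoform that carried the locus, while all of them had a high sum. Isoform 3 alone did not pass, since SHR replicate 1 lies within the SHR+Nef range of 0.182 to 1.03 (log2 difference -1.85, standard error 0.45, limma, adjusted p = 0.64), and isoform 1 did not meet the filter. A sum without isoform 1 is the same as isoform 3 and did not pass either, so with all libraries the call of this locus needs both isoforms. Without SHR replicate 1, where it is low, isoform 3 passed by itself (log2 difference -2.31, limma, adjusted p = 0.0343). It also did with the filter of all libraries held (limma, adjusted p = 0.0280). Replicate 1 is singled out here for its low value. Isoform 3 reached 1 only in SHR replicates 2 to 5 and in SHR+Nef replicate 5, so it met the filter mainly through SHR. These p-values are therefore no support beyond the values.

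**Figure D1:**
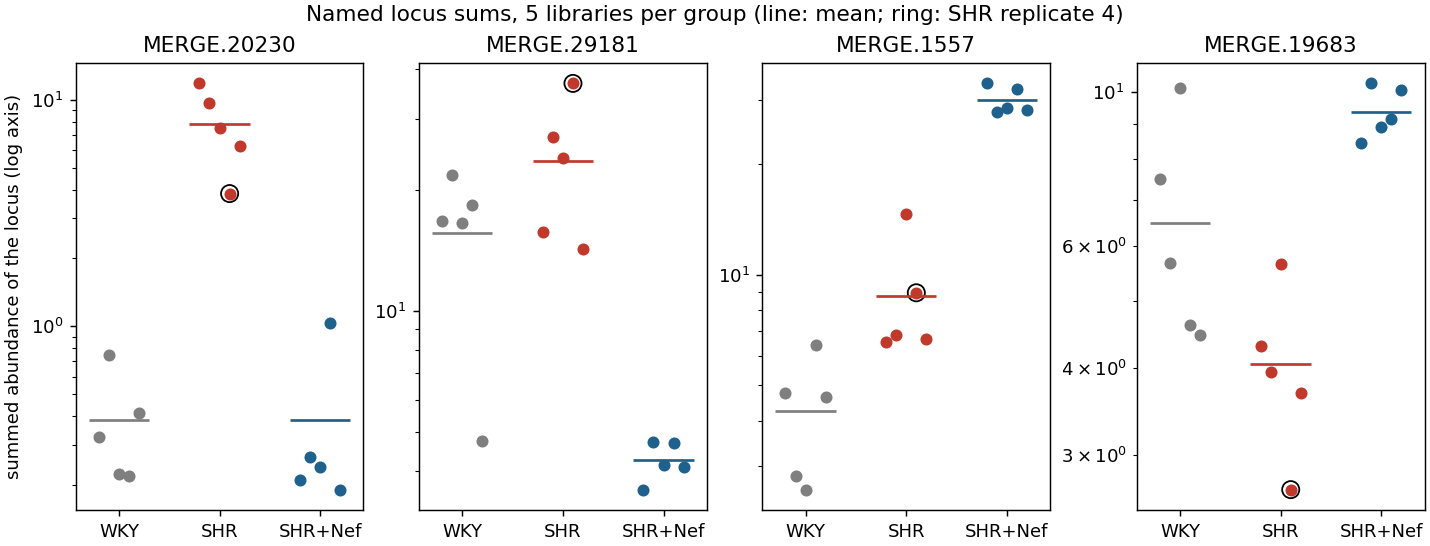
Summed abundance of the 4 named loci in each library (y axis, logarithmic, abundance units as deposited, a separate scale per panel) for WKY, SHR and SHR+Nef (x axis), 5 libraries per group, with a line at the mean and a ring around SHR replicate 4. In all 4 panels the SHR and SHR+Nef libraries do not overlap, and in MERGE.20230 the treated libraries, at 0.190 to 1.03, lie in and around the range of WKY.

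MERGE.29181 was expressed in all 3 groups and lowest with neferine. Its sum was 15.8, 27.1, 24.0, 36.8 and 14.2 in SHR replicates 1 to 5. In SHR+Nef replicates 1, 2, 4, 5 and 6 it was 3.60, 4.72, 4.13, 4.71 and 4.09. The treated libraries were close to each other, with a mean of 4.25 ± 0.474, while SHR was at 23.6 ± 9.17 (SD, n = 5 each), and the groups did not overlap. The WKY libraries were at 16.8, 21.8, 16.6 and 18.4 in replicates 1 to 4 and at 4.75 in replicate 5, which alone came down to the level of the treated ones. The log2 difference was -2.15, standard error 0.33, with a 95% interval from -2.86 to -1.44 (limma, adjusted p = 0.0382). This call depended on single libraries: it ended when any 1 of 9 libraries was left out, SHR replicate 4 among them (-1.98, limma, adjusted p = 0.0915), and was kept only without SHR replicate 5. The difference itself stayed between -2.36 and -1.98 in all 30 alternatives.

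All 3 isoforms of MERGE.29181 were lower on average with neferine, and none passed by itself. Isoform 1 ranged from 3.22 to 7.92 without and from 1.45 to 2.09 with neferine (log2 difference -1.17, limma, adjusted p = 0.64). Isoform 4 ranged from 2.63 to 17.9 without and from 0.223 to 2.51 with neferine (log2 difference -2.06, limma, adjusted p = 0.64). Neither of these overlapped between the groups. Isoform 3 did overlap, from 1.28 to 19.8 without and from 0.132 to 2.10 with neferine (log2 difference -1.82, limma, adjusted p = 0.80).

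**Figure D2:**
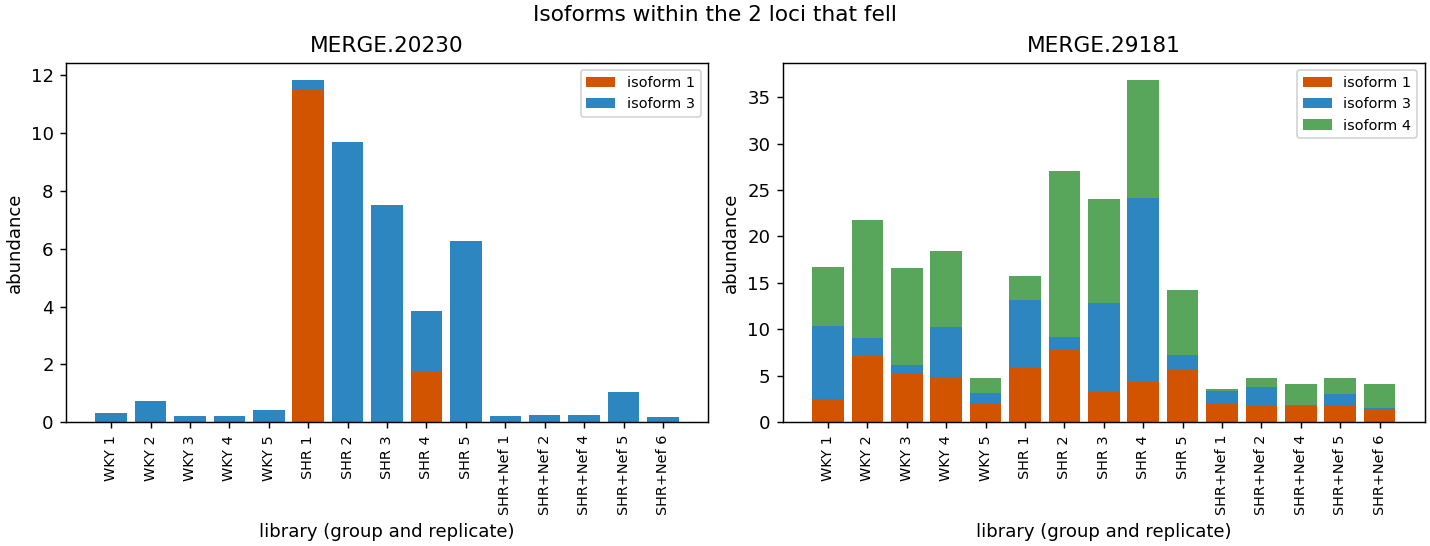
Stacked bars of isoform abundance (y axis, abundance units as deposited) in each of the 15 libraries (x axis) for MERGE.20230 and MERGE.29181. In MERGE.20230 the SHR signal is isoform 1 in replicate 1, both isoforms in replicate 4 and isoform 3 in the others, and in MERGE.29181 the 5 treated libraries have short bars, at 3.60 to 4.72.

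The sum of MERGE.1557 lay between 6.53 and 14.6 in the SHR libraries, between 27.8 and 33.3 in the treated ones and between 2.59 and 6.43 in WKY (log2 difference 1.73, standard error 0.23, limma, adjusted p = 0.00973). Its call ended without SHR+Nef replicate 1 (limma, adjusted p = 0.05001), and without SHR replicate 2 when the filter of all libraries was held (limma, adjusted p = 0.0508). Next among the higher loci was MERGE.19683, which did not pass. Its sum was 4.30, 3.95, 5.65, 2.67 and 3.68 in SHR replicates 1 to 5, and 8.45, 10.3, 8.90, 9.15 and 10.1 in the SHR+Nef libraries. The groups did not overlap, and the log2 difference was 1.06, standard error 0.20 (limma, adjusted p = 0.26). In WKY it ranged from 4.47 to 10.1, across the gap between the other groups.

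Among single transcripts, 2 of 23172 differed, MERGE.1557.2 and MERGE.1557.5, which rose with neferine (limma, adjusted p under 0.05, 0.00863% of those tested). With an unadjusted p under 0.05 there were 1285, of which 716 were higher and 569 lower, and 0 lower ones passed the adjusted threshold (limma). A share of about 0.05 of all tests would reach that unadjusted level with no effect at all. MERGE.1557.2 ranged from 0.956 to 2.49 without and from 5.60 to 9.17 with neferine, and MERGE.1557.5 from 1.51 to 3.21 and from 6.93 to 11.4 (log2 difference 1.73 for each, standard errors 0.21 and 0.20, limma, adjusted p = 0.00759 for each). Isoform 6 of the same locus overlapped between the groups, from 1.88 to 6.21 without and from 5.74 to 10.0 with neferine. It did not pass (log2 difference 1.22, standard error 0.33, limma, adjusted p = 0.80).

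These calls depended on which libraries share the estimate of spread. With WKY left out of the model neither MERGE.1557.2 nor MERGE.1557.5 passed (limma, adjusted p = 0.0644 and 0.0901), and 1 other transcript did. That Ensembl transcript, singled out after its values were seen, was at 12.3, 11.8, 7.76, 10.3 and 15.8 in SHR replicates 1 to 5. In SHR+Nef it was at 0.508, 0.340, 0.663, 0.778 and 0.440 in the order of the replicates. Its log2 difference of -3.00 had a standard error of 0.20 from the 2 groups alone (limma, adjusted p = 0.000757). It is one of the 5 transcripts that entered only through the SHR libraries, so it had to differ to be tested at all, and this p is no support beyond its values. With WKY in the model the standard error was 0.57 (limma, adjusted p = 0.40). The WKY libraries fell into high and low values, 11.3 and 12.6 in replicates 2 and 3 against 0.438, 0.332 and 2.06 in replicates 1, 4 and 5. Without SHR replicate 4 and with WKY left out, 0 transcripts passed (limma, 1003 with an unadjusted p under 0.05), but this one was then not tested. With the filter of all libraries held it was the 1 that passed (log2 difference -3.03, limma, adjusted p = 0.00320).

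The 2 lower transcripts with the smallest p whose groups did not overlap were ENSRNOT00000032972 and MERGE.11573.5, and neither passed. ENSRNOT00000032972 was at 2.18, 2.16, 1.90, 2.99 and 2.11 in SHR replicates 1 to 5 and at 0.387, 0.297, 0.504, 0.695 and 0.392 in SHR+Nef. These are low values with a narrow spread, and the highest is SHR replicate 4. The log2 difference was -1.17, standard error 0.18 (limma, adjusted p = 0.0817), and WKY was at 0.883 to 2.60. MERGE.11573.5 ranged from 1.45 to 4.57 in SHR, reached 0.364 in SHR+Nef replicate 1 and lay between 0 and 0.00577 in the remaining treated libraries (log2 difference -1.56, limma, adjusted p = 0.38). Both met the filter through the 5 SHR libraries alone, so their p-values are no support beyond these values. Without SHR replicate 4, which holds the highest value of each, and with the filter of all libraries held, the differences were -1.09 and -1.36 (limma, adjusted p = 0.19 and 0.45).

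Beyond the calls, the 5 treated and the 5 untreated libraries did not overlap in 237 transcripts. Of these 156 were higher with neferine (0.673% of all tested) and 81 lower (0.35%). Among loci 75 were higher (0.817%) and 46 lower (0.501%). Over both directions 1.02% of transcripts and 1.32% of loci separated. Values in random order separate fully, in either direction, with a probability of 0.00794 for 2 groups of 5. Separation by itself thus does not mark a feature as changed. Ensembl transcripts and assembled isoforms had similar shares without overlap, 0.983% and 1.05%. The excess of higher over lower moved with the filter and the library. With the mean of 1 asked of SHR+Nef in place of SHR, 200 were higher and 63 lower of 23691 transcripts. Leaving out SHR replicate 4 gave 198 higher and 179 lower of 23025. Without SHR replicate 5, 364 were higher and 382 lower of 22000. With the filter of all libraries held that balance did not turn, with 405 higher and 387 lower of 23172. For loci it turned without SHR replicate 4, with 94 higher and 106 lower of 9126. With the filter held these were 93 and 109 of 9183. Groups of 4 and 5 libraries separate more easily than 2 groups of 5, so counts without a library are not comparable with the 156 and 81.

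Most of these separated transcripts differed by small amounts. Among all 23172 transcripts tested, 598 had a log2 difference above 1 and 442 one below -1, together 4.49%. Of those without overlap, 32 of the 156 had one above 1 and 24 of the 81 one below -1. Assembled isoforms made up 42 of these 56, against 57.0% of all tested transcripts. The mean in the higher group exceeded 10 in 6 of the 32 and in 8 of the 24, against 26.5% of all transcripts tested.

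**Figure D3:**
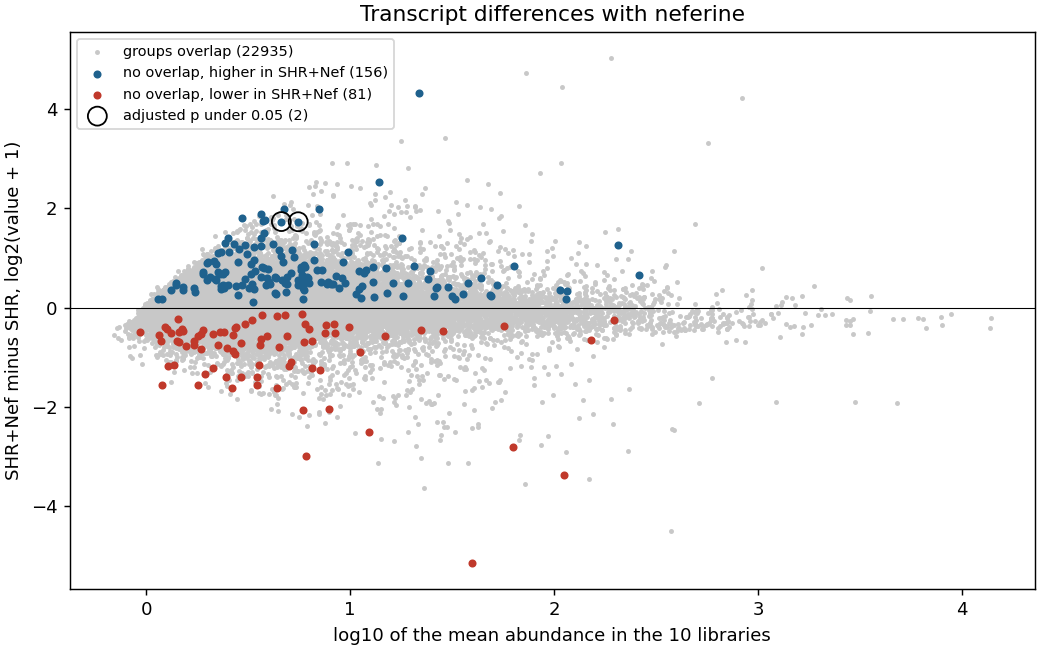
Difference of each of the 23172 transcripts (y axis, SHR+Nef minus SHR on the log2(value + 1) scale) against the log10 of its mean abundance in the 10 libraries (x axis). Coloured points are the 237 transcripts whose groups do not overlap, rings mark the 2 that passed, and the grey points hold many differences as large as those of the coloured ones.

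A log2 difference beyond 2 without overlap was found in 9 transcripts, 2 higher and 7 lower with neferine, none of which passed with WKY in the model (limma, adjusted p from 0.40 to 0.80). The filter kept out transcripts low in SHR and high with neferine, so this split by direction is not even-handed. The cut-off of 2 was chosen with the values in view, and the IDs are not printed apart from isoform 4 of MERGE.29181, described above. In several of them the treated libraries fell into high and low values rather than shifting together. An assembled isoform was at 19.6, 17.8, 20.5, 16.0 and 17.1 in SHR, and at 15.9 and 15.7 in SHR+Nef replicates 2 and 4 but at 0.161, 0.114 and 0.183 in replicates 1, 5 and 6. In that isoform the 2 high treated libraries reached almost the lowest SHR value, and WKY was split in the same manner, at 13.5 and 15.3 in replicates 3 and 5 and at 0.197 to 1.04 in the rest. Another assembled isoform ranged from 62.2 to 183 in SHR and was at 56.1, 47.1 and 60.0 in SHR+Nef replicates 2, 5 and 6, and at 0.232 and 0.323 in replicates 1 and 4.

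An Ensembl transcript with the widest difference, -5.17 log2 units, was at 43.0, 81.2, 76.2, 94.2 and 71.0 in SHR. It was at 29.7 in SHR+Nef replicate 2, at 0.0406 in replicate 1 and listed at 0 in the other 3 treated libraries. In WKY it was listed at 0 in replicates 1, 2 and 5 and stood at 61.4 and 78.5 in replicates 3 and 4. Such a transcript is high in every untreated SHR library and either high or absent elsewhere, and its standard error was 1.36 log2 units (limma, adjusted p = 0.80).

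The higher transcript with the widest difference, 4.33 log2 units, was an assembled isoform at 68.3, 8.31, 15.7, 63.8 and 55.7 in the SHR+Nef libraries. The SHR libraries had 5.92 in replicate 2, 0.644 in replicate 1 and 0.00267 to 0.0227 in replicates 3 to 5. In WKY it ranged from 0.00424 to 13.2, so that 3 treated libraries, at 55.7 to 68.3, stood far above every SHR and WKY library (standard error 0.82, limma, adjusted p = 0.40). The other higher one was an Ensembl transcript at 14.1 to 26.5 with neferine, at 6.56 to 12.6 in SHR replicates 1, 3 and 5 and listed at 0 in SHR replicates 2 and 4. Its WKY values, 11.5 to 25.8, covered most of the treated range (log2 difference 2.53, standard error 0.66, limma, adjusted p = 0.80).

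**Figure D4:**
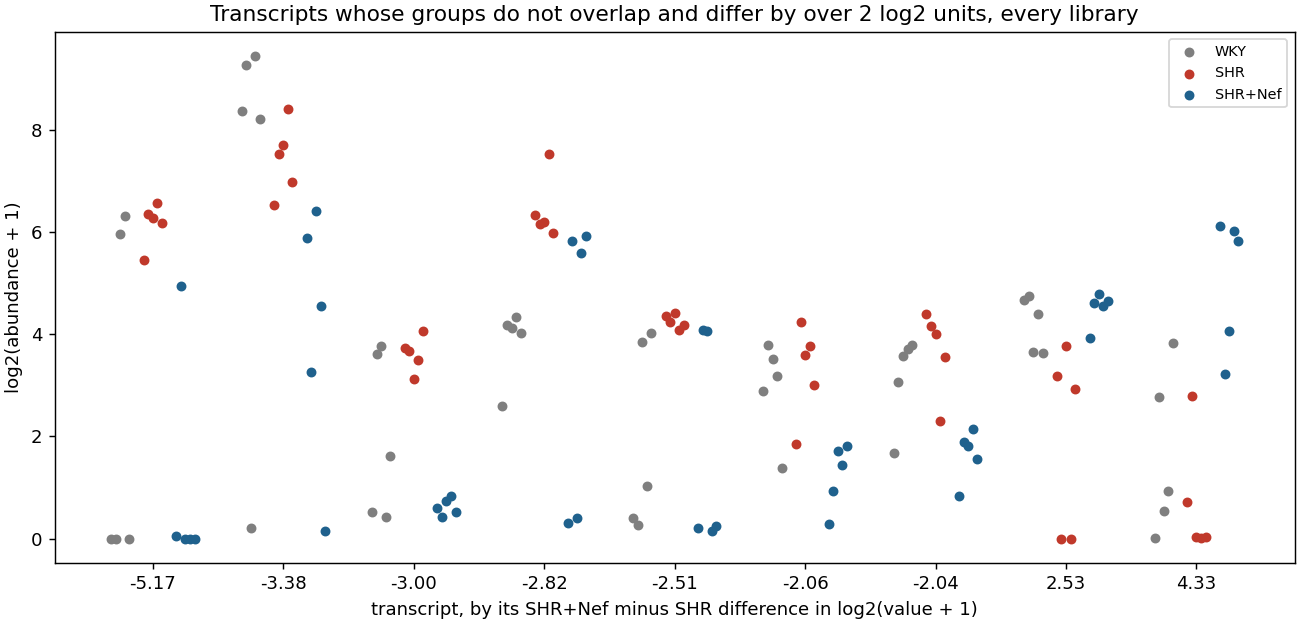
log2(abundance + 1) of every library (y axis) for the 9 transcripts whose SHR and SHR+Nef values do not overlap and differ by over 2 log2 units, ordered by that difference (x axis), with WKY in grey, SHR in red and SHR+Nef in blue, 5 points per group. The red points sit together in most columns, while the grey and blue points split into high and low values in several.

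Among loci, where the filter likewise kept out those low in SHR and high with neferine, 4 were separated by over 2 log2 units. All were lower with neferine, the 2 that fell and 2 that did not pass. One of the latter was at 4.94, 10.1, 5.03, 20.7 and 11.6 in SHR replicates 1 to 5 and between 0.0160 and 0.519 in the treated libraries (difference of -3.15 log2 units with SE 0.62, limma, adjusted p = 0.28). In WKY it was at 8.49 and 9.38 in replicates 3 and 5 and at 0.0466 to 0.576 in the rest. With WKY left out of the model this locus passed (standard error 0.34, limma, adjusted p = 0.00981), as did MERGE.20230, MERGE.29181 and MERGE.1557. It is one of the 3 loci that entered only through the SHR libraries, so its p is no support beyond these values. Its highest value is in SHR replicate 4. Without that library, WKY still left out, it was not tested, and with the filter of all libraries held its difference was -2.88 (limma, adjusted p = 0.00723). The other was a locus of 1 isoform between 3.96 and 20.2 in SHR and between 0.783 and 3.42 in SHR+Nef, with its lowest SHR value in replicate 4 (log2 difference -2.04, limma, adjusted p = 0.39). Without SHR replicate 4 the difference of this locus was -2.39, which did not pass with WKY in the model (limma, adjusted p = 0.0915) and passed with WKY left out (limma, adjusted p = 0.0343). It also passed with array quality weights (-2.32, limma, adjusted p = 0.0429).

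Across all transcripts the 2 groups were close to each other. The median difference was 0.04 log2 units and 54.8% were higher with neferine. Without SHR replicate 4 the median was -0.01 over the same transcripts and 47.6% were higher, so the direction of this small shift rests on that library. Array quality weights, with 49.0% higher, and quantile normalization, with 49.4%, also removed it.

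The shift depended on abundance and changed with SHR replicate 4, but did not vanish in every class without it. Transcripts with a mean under 2 had a median difference of 0.01, with 51.5% higher, and of -0.05 with 42.6% higher without that library. Transcripts with a mean of 2 to 5 had a median difference of 0.09 with all libraries and 0.00390 without SHR replicate 4. The 736 transcripts with a mean over 100 had a median difference of -0.15, with 33.0% higher, and -0.04 with 39.4% higher without that library. In SHR replicate 4 the abundant class lay 0.51 log2 units above the mean of the 10 libraries in its median, while the other 4 SHR libraries lay at -0.24 to 0.10 and the SHR+Nef libraries at -0.23 to 0.07. In this class the SHR+Nef libraries thus lie within the range of the other 4 SHR libraries.

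**Figure D5:**
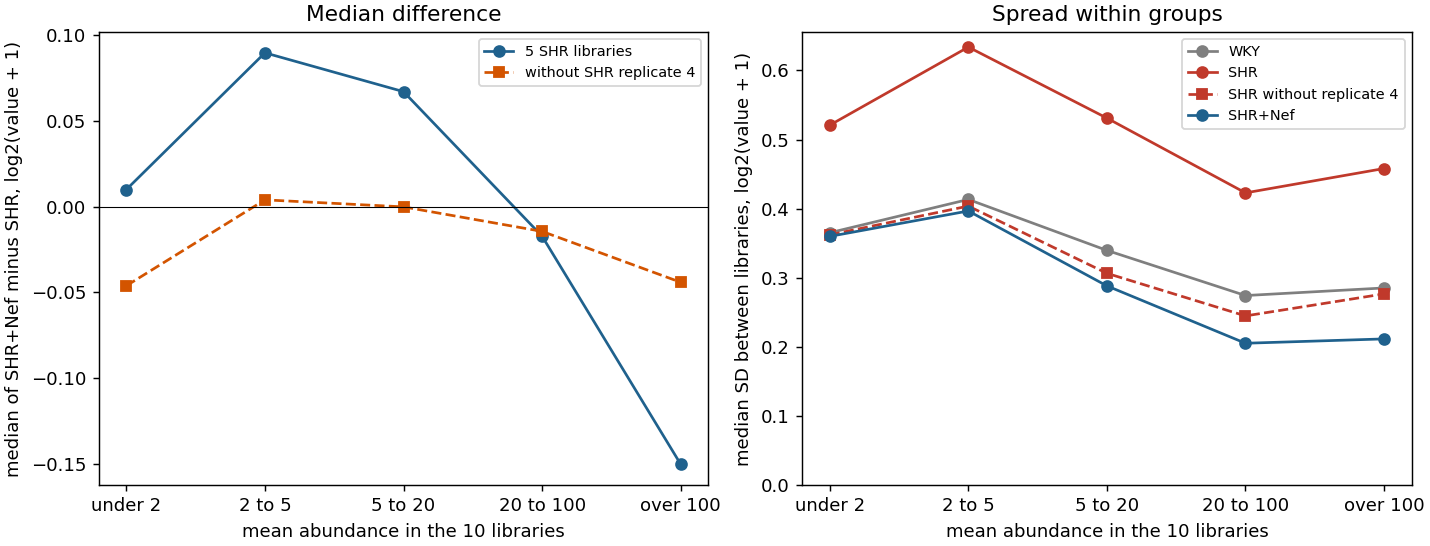
Left, the median SHR+Nef minus SHR difference (y axis, log2(value + 1) scale) in 5 classes of mean abundance (x axis), with all SHR libraries and without SHR replicate 4. Right, the median SD between libraries of a group (y axis) in the same classes. The difference in the most abundant class goes from -0.15 to -0.04 without that library, and the SHR spread drops to near that of WKY and SHR+Nef.

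The spread between treated libraries was near that of WKY, and near that of SHR only when SHR replicate 4 was left out. The median SD over transcripts was 0.32 log2 units in SHR+Nef, 0.36 in WKY and 0.54 in SHR, and 0.34 in SHR without replicate 4. Above a mean of 20 the SHR+Nef spread was the smallest of the groups, 0.20 for means of 20 to 100 and 0.21 above 100, against 0.24 and 0.28 in SHR without replicate 4 and 0.27 and 0.29 in WKY. These medians are descriptions over transcripts and were not tested.

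The spread limits what the comparison can exclude. The 95% interval of the difference lay wholly between -1 and 1 log2 units in 13161 transcripts, 56.8% of those tested, and in 68.6% of the loci. This share was 72.7% above a mean of 100 and 47.2% at means of 2 to 5. It lay wholly above 1 in 8 transcripts and wholly below -1 in 7, among them the 2 that passed. For the other 9996, whose interval includes 1 or -1, a difference of that size is neither shown nor excluded. The intervals are not adjusted for the number of transcripts.

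Summaries of whole libraries did not differ between the groups beyond their spread. The summed abundance of the transcripts tested ranged from 485085 to 727382 without and from 477245 to 536905 with neferine (exact permutation test, two-sided, n = 5 each, p = 0.111, adjusted p = 0.36 over 4 summaries). Assembled isoforms held 18.1% to 24.5% of the sum without and 22.5% to 24.4% with neferine (exact permutation test, two-sided, p = 0.222, adjusted p = 0.36). The 10 most abundant transcripts held 14.0% to 18.4% without and 12.6% to 16.7% with neferine (exact permutation test, two-sided, p = 0.27, adjusted p = 0.36), and the number of transcripts at 0 also did not pass (exact permutation test, two-sided, p = 0.786).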

How the data were processed

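Each library has 1 table, in which the authors deposited a signal per transcript, fractional and never negative. Not given in the sources used here: whether this is FPKM or TPM, and which aligner and assembler were used. The submitters' processing notes name limma and the mouse build mm10, although labels and IDs are of rat. Depth in reads is unknown, so no counting intervals are given.

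The values are not counts, so log2(value + 1) was tested with limma 3.58.1 in R 4.3.3 (trend and robust options, two-sided), with all 3 groups in 1 model to share the estimate of spread, Benjamini-Hochberg adjustment over all features and calls at 0.05. Locus sums hold assembled isoforms listed for both groups. The script was tested on simulated data. Library summaries used exact permutation tests (scipy 1.17.1). Figures used matplotlib 3.10.9. No 2 of the 10 libraries looked like copies (smallest SD of their log2 differences 0.887).

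Named features are, per direction, up to 2 that pass without overlap by size of change, filled by smallest p. The comparison, filter and lists were chosen with earlier results of these data known. The gene and marker lists could not be applied. Alternatives changed the moderation, weights, scaling, filter, pseudocount, groups in the model, a replicate block, single libraries and the isoforms in a sum.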

Additional observations from a re-analysis of the deposited data

Results flagged for a closer look

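In 36 sets of 5 values, 1 per library of a group, a value lying far from the others was looked for, and chance alone marks about 5% of such sets. The highest SHR value came from replicate 4 and was marked in 4 sets: summed abundance (727382), number of transcripts at 0 (2788), ENSRNOT00000032972 (2.99) and MERGE.11573.5 (4.57). In MERGE.11573.5, WKY replicate 1 (1.74) and SHR+Nef replicate 1 (0.364) also stood above their groups. SHR+Nef replicate 5 stood above the other treated libraries in MERGE.20230 (1.03), and WKY replicate 1 in the percentage taken by the 10 most abundant transcripts (28.0%). Outside the comparison, 7 transcripts listed only for SHR+Nef were at 1 or more in all 5 SHR+Nef libraries, and no values of SHR were at hand for them.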

How the results depend on the processing

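SHR replicate 4 combined with the 2-group model, isoforms counted as 0 where unlisted, sums over filtered isoforms and holding the filter of all libraries while a SHR library is left out were chosen after the data were seen. Transcripts called, 2 as reported, were 0 with a minimum of 5 (529 with an unadjusted p under 0.05, limma), 0 with a pseudocount of 0.1 (1173), 1 with WKY left out, 0 with WKY and SHR replicate 4 left out (1003), and 2 to 4 with 1 library left out, 4 when the one left out was SHR replicate 3, SHR+Nef replicate 2 or SHR+Nef replicate 5. With the filter held they were 2 to 4 with 1 SHR library left out, 4 without replicate 1 or 3, and 1 with WKY and SHR replicate 4 left out. Of the 4 named transcripts, 2 passed as reported and 2 with any 1 library left out. With a pseudocount of 0.1 or WKY left out 0 passed, the last also without SHR replicate 4 and with the filter held (limma). With a minimum of 5 only MERGE.1557.5 among them was tested, and it did not pass (limma, adjusted p = 0.45). ENSRNOT00000032972 and MERGE.11573.5 were tested without a SHR library only with the filter held, and did not pass there. Locus sums called, 3 as reported, were 1 with a filter on the SHR+Nef mean, 0 with sums over isoforms that pass the transcript filter (493 with an unadjusted p under 0.05, limma), and 1 to 3 with 1 library left out, 1 without SHR+Nef replicate 1. With the filter held they were 1 to 5 with 1 SHR library left out, 1 without replicate 2 and 5 without replicate 5, and 5 with WKY and SHR replicate 4 left out. Replicate numbers showed no sign of pairing the libraries. Deviations of the 4 same-numbered pairs of SHR and SHR+Nef libraries correlated at -0.0657 to 0.0371, and those of the 21 other pairs at -0.127 to 0.14. So few pairs cannot settle whether libraries of the same number belong together. With the replicate block 0 transcripts (1393 with an unadjusted p under 0.05, limma), 0 of the named transcripts and 1 locus, MERGE.20230, were called. The named transcripts and loci kept their direction in all 213 alternative values and their side of the threshold in 180. The 180 include all 20, 20 and 30 values of ENSRNOT00000032972, MERGE.11573.5 and MERGE.19683, which never passed. Calls were kept in 22 of 27 values for MERGE.1557.2 and 22 of 28 for MERGE.1557.5. Among loci they were kept in 26 of 30 for MERGE.1557, 27 of 28 for MERGE.20230 and 13 of 30 for MERGE.29181. Of the 33 lost calls, 17 were at MERGE.29181. Its call also ended with median scaling (limma, adjusted p = 0.0691). Depth in reads is unknown, so counting error could not be separated from the spread between libraries.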

Other observations

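Some transcripts that the filter kept out were near 0 in SHR and present with neferine. In 6 transcripts all 5 SHR libraries were under 0.5 and all 5 SHR+Nef libraries at 1 or more, and 1 locus sum had this pattern. The opposite pattern was found in 1 transcript, MERGE.11573.5, and in 0 loci. The listing decides which transcripts of the first kind can be seen, so the 2 counts are not comparable.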
